A study of Homo sapiens with 2 samples.

Results

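The solute carrier (SLC) genes encode membrane proteins that move sugars, amino acids, ions, metals, nucleotides and vitamins across the plasma membrane and the membranes of the organelles. Genes were taken from the array annotation by their symbol, SLC followed by a family number, a letter and a member number, and were then chosen by their mean deposited signal over the 2 arrays of the series, which had to be 50 or more. A gene with several such probe sets was read by its brightest one. Of 342 SLC genes on the array, with 747 probe sets, 162 genes of 47 families met the limit and 180 did not, and 9447 genes of any kind met it. The 162 genes were grouped by what they carry: 5 genes for glucose and related hexoses, 24 for amino acids, 21 of the nucleotide sugar family SLC35, 16 for zinc, 32 of the mitochondrial family SLC25, and 64 in 11 further groups.

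U87, an established human glioblastoma cell line, was transfected with 50 nM of either a control siRNA or an siRNA against HOXD9 (HOXD9 siRNA-2), a homeobox transcription factor gene. RNA from each of the 2 cultures was read on 1 Affymetrix U133 Plus 2.0 array, on which a probe set is a group of short oligonucleotides for 1 transcript and its signal is a brightness on a linear scale. The comparison asks which transcripts differed after HOXD9 was targeted. With 1 array for each condition there were no replicates, so no test, standard deviation or p-value could be given, and the sizes below describe these 2 arrays only. Each array read RNA pooled from many cells, so that a large change in some cells and a small change in all of them cannot be told apart.

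Carriers differ in where they sit and what drives them. Some at the cell surface let a substrate run down its gradient, others couple it to sodium or protons, and exchangers swap one substrate for another. SLC35 proteins bring activated sugars into the Golgi apparatus and endoplasmic reticulum for glycan synthesis, SLC25 proteins link the mitochondrial matrix with the cytosol, and for zinc the SLC39 (ZIP) family moves the metal into the cytosol while the SLC30 (ZnT) family moves it out.

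The 2 arrays did not have the same overall brightness. The median signal of all 54613 probe sets was 22.5 with control siRNA against 18.3 with HOXD9 siRNA. Over the 9447 genes, log2 ratios of HOXD9 siRNA over control siRNA had a median of -0.25. Dividing each array by its own median (centering) adds 0.30 to every log2 ratio, so a gene between -0.30 and 0 changes sign, and each value is best read against -0.25. Probe sets for Bacillus subtilis transcripts, which human RNA lacks, reached at most 18.4 and were used as the background level. The array medians behind the shift of 0.30 lay near that level, among dim probe sets. The very bright probe sets of the reference gene GAPDH gave log2 ratios of -0.02, -0.02 and -0.03. The brighter HOXD9 probe set gave 19.7 with control siRNA and 5.58 with HOXD9 siRNA and the other gave 9.33 and 11.4, so that 3 of the 4 signals lay within the background and the targeted gene gave little check of the labels. Of markers of the cell line, VIM (vimentin) gave 11349 and 10823 and CD44 gave 5638 and 5012. NES (nestin) was lower with HOXD9 siRNA, at 116 and 70.6 (-0.72) and, on a dimmer probe set, 28.8 and 18.5 (-0.64), whereas the astrocyte gene GFAP was at background on both arrays. So were the leukocyte gene PTPRC and the neuron gene RBFOX3. The stem marker SOX2 was at background but for a signal of 19.2 with control siRNA. The epithelial marker EPCAM lay a little above background, with 28.2 and 23.8.

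As a whole, the SLC genes lay close to the other genes, with a larger share past 2-fold on the low side. Their median log2 ratio was -0.23, against -0.25 over all genes, and their lower quartile was -0.45, as it was for all genes. Their ratios ran from -1.49 for SLC35D2 to 0.73 for SLC36A1, and those of all genes from -3.64 to 1.39. Below 0 lay 128 of the 162 genes and above it 34, a smaller share below 0 than the 86.1% of all genes. Centering turned this split to 71 and 91, and that of all genes to 3981 and 5466. Of the 162 genes, 11 (6.79%) were lower with HOXD9 siRNA by more than 2-fold, against 3.0% of all genes, and 0 were higher by more than 2-fold, against 0.0423%. After centering 4 genes (2.47%) were lower and 2 (1.23%) were higher, against 1.15% and 0.169% of all genes. Those 4 were SLC35D2, SLC23A2, SLC31A2 and SLC25A25, and those 2 were SLC36A1 and SLC29A3. Of the 11 genes, 5 were read by 1 probe set at the limit and 6 by several.

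**Figure D1:**
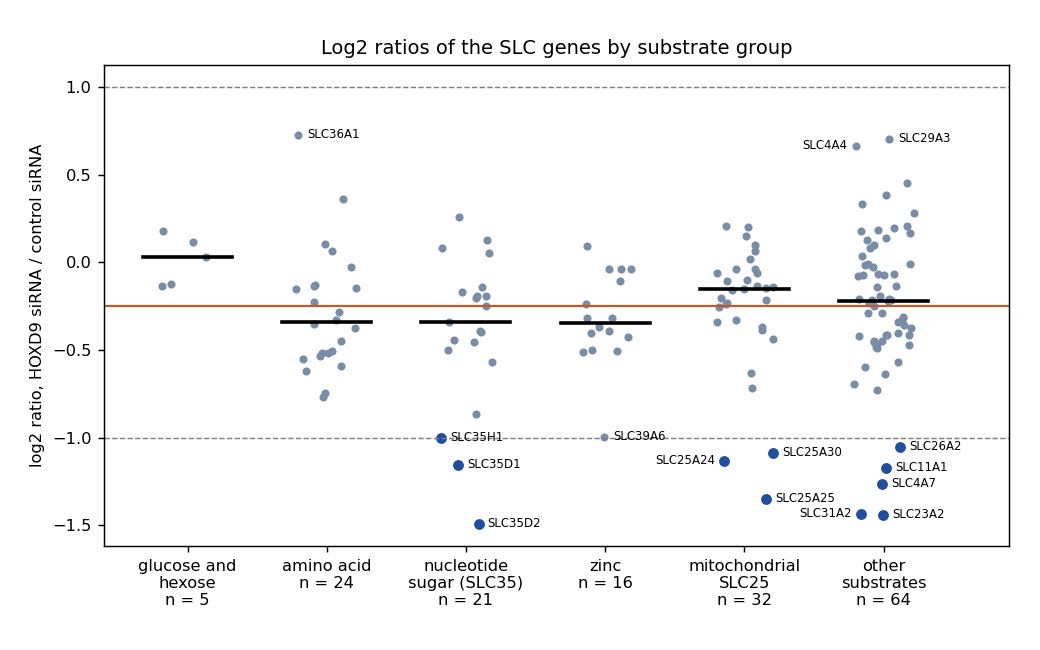
Log2 ratio of HOXD9 siRNA over control siRNA for each of the 162 SLC genes (points) by substrate group, with group medians as black bars, the median of all genes as the orange line and 2-fold as dashed lines. The 11 dark blue points lay below the lower 2-fold line, 3 of them in the nucleotide sugar group, 3 in SLC25 and 5 among the other substrates, and none of the glucose, amino acid or zinc genes did.

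The only measure of error within the arrays came from genes read by several probe sets. Among probe sets of 1 gene that met the limit, log2 ratios had a pooled standard deviation of 0.27 over 4501 genes, and of 0.27 over the 74 SLC genes with more than 1 such probe set. This spread holds differences between probes and between transcript forms on the same pair of RNA samples, and holds nothing of the spread between cultures. Within 0.27 of the median of all genes lay 101 SLC genes (62.3%), against 68.9% of all genes. Farther below lay 28 (17.3%, against 18.98% of all genes) and farther above lay 33 (20.4%, against 12.1%). Of the 74 genes, 58 had every probe set below 0, 1 had every probe set above 0 and 15 were mixed. This count was not made for all genes, of which 86.1% were below 0 on their brightest probe set. Dimmer probe sets below the limit but above background on both arrays were had for 41 SLC genes. In 17 of the 41 such a probe set lay on the other side of the median of all genes, more than 0.5 from the brightest, among them SLC35D2, SLC25A30, SLC35H1, SLC36A1 and SLC19A1. The share of all genes with such a probe set was not computed.

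**Figure D2:**
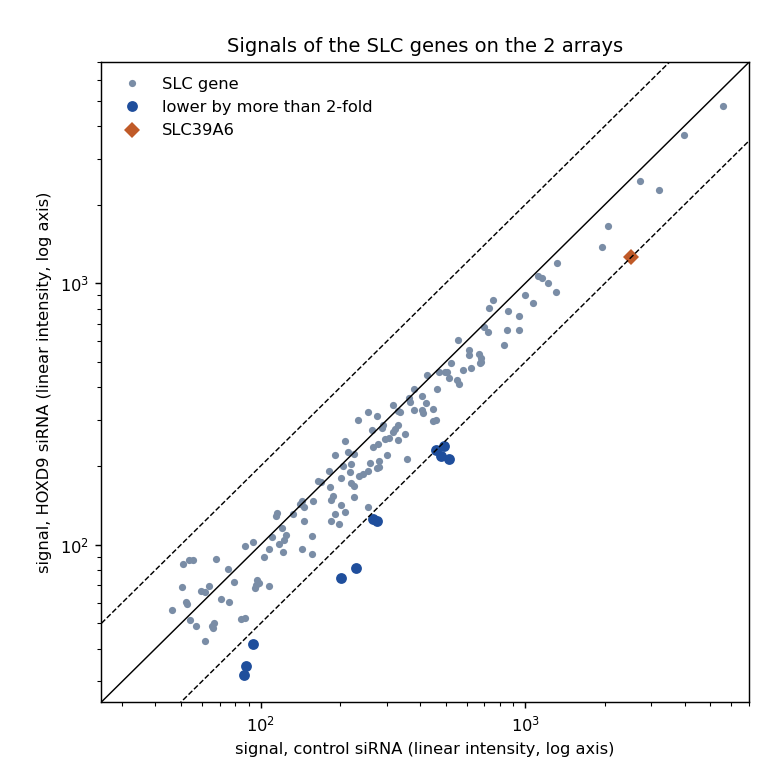
Signal of the 162 SLC genes with control siRNA (x axis) and HOXD9 siRNA (y axis), both linear intensities on log axes, with equal signal as the solid line and 2-fold as dashed lines. The 11 genes lower by more than 2-fold had control signals from 86.6 to 514, and SLC39A6, with control signal 2507, lay on the line.

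All 5 glucose and hexose genes lay above the median of all genes. SLC2A1 and SLC2A3 lay within 0.27 of it, and SLC50A1, SLC2A8 and SLC2A6 lay farther above. SLC2A1 (GLUT1), the glucose carrier of most cells, gave 407 with control siRNA and 370 with HOXD9 siRNA. SLC2A3 (GLUT3), a carrier of high affinity found in neurons, gave 498 and 457. Both were slightly dimmer on the HOXD9 siRNA array, with log2 ratios of -0.14 and -0.12, and both lay above the median of all genes. SLC50A1, a sugar exporter, gave 143 and 147, a log2 ratio of 0.03. SLC2A8 gave 63.9 and 69.3 and SLC2A6 gave 52.7 and 59.5, with log2 ratios of 0.12 and 0.18, the latter 2 near the signal limit. The group median was 0.03 (0.33 after centering), and its sign turned with the signal limit, to -0.12 with a limit of 100 and -0.13 with a limit of 20. The 3 probe sets that read SLC2A3 alone ran from -0.17 to -0.05, while 2 left out for matching both SLC2A3 and SLC2A14 gave 348 and 273 (-0.35), and 353 and 267 (-0.40).

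Among amino acid carriers, 14 genes lay below the median of all genes and 10 lay at or above it. The group median was -0.34 (-0.04 after centering) and 0 of the 24 genes passed 2-fold in the deposited ratios. SLC38A10 was lowest, with 156 and 91.9 (-0.77). SLC7A11 (xCT), which takes up cystine in exchange for glutamate, gave 357 and 213, a log2 ratio of -0.75, and its other probe set gave -0.82. SLC7A5 (LAT1), the exchanger for large neutral amino acids, went the other way with 232 and 299 (0.36). SLC3A2, the heavy chain that both partners need to reach the surface, gave 423 and 348 (-0.28), a value within 0.27 of the median of all genes.

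Carriers of glutamine and other small neutral amino acids had ratios on both sides of the median of all genes. SLC1A5 (ASCT2), a sodium-coupled exchanger that takes up glutamine, gave 461 and 300 (-0.62), and its relative SLC1A4 (ASCT1) gave 122 and 93.7 (-0.38). SLC38A2 (SNAT2), a sodium-coupled carrier induced when amino acids are scarce, gave 2709 and 2472, and SLC38A1 (SNAT1) gave 1316 and 1199, both with log2 ratios of -0.13. The other probe sets of SLC38A1 were lower, at -0.51 and -0.64, and the mean of its 3 was -0.43. SLC38A6 gave 949 and 663 (-0.52), and SLC38A9, the lysosomal arginine sensor, gave 192 and 131 (-0.55). All 7 SLC38 genes were below 0 in the deposited ratios, as were 86.1% of all genes. After centering the brightest probe sets of SLC38A1 and SLC38A2 were above 0, both at 0.17. SLC7A1 (CAT1), the carrier of arginine and lysine, gave 1957 and 1376 (-0.51) and its 3 probe sets ran from -0.66 to -0.36. SLC7A8 (LAT2) gave 185 and 123 (-0.59), and its 3 probe sets ran from -1.001 to -0.24.

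Of the 24 genes, 4 were above 0 in the deposited ratios, SLC7A5 and 3 carriers of glutamate or small amino acids. SLC1A3 (EAAT1) gave 426 and 444 (0.06) and SLC1A1 (EAAT3) gave 317 and 341 (0.10), both above the median of all genes. SLC1A2 (EAAT2), the main glutamate carrier of astrocytes in the brain, was at background on both arrays. SLC36A1 (PAT1), a lysosomal proton-coupled carrier of small amino acids, gave 51.1 and 84.5, the highest ratio of all SLC genes at 0.73 and 1.03 after centering. Its signal lay just over the limit, and it had 1 probe set there, while a dimmer one below the limit gave -0.94. SLC6A6 (TauT), the taurine carrier, gave 995 and 899 (-0.15) with its brightest probe set and 0.45 with the other.

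In the SLC35 family, 3 of 21 genes were lower by more than 2-fold (14.3%, against 3.0% of all genes). After centering 1 of them was (4.76%, against 1.15%). The family median was -0.34 (-0.04 after centering). SLC35D2, a Golgi carrier of UDP-N-acetylglucosamine, gave 230 with control siRNA and 81.7 with HOXD9 siRNA, the lowest ratio of all SLC genes at -1.49 and -1.19 after centering. Its other probe set gave 103 and 39.5 (-1.39), so both at the limit passed 2-fold, but a dimmer one below the limit, above background on both arrays, went the other way with 30.2 and 49.4 (0.71). SLC35D1, which carries UDP-glucuronic acid and UDP-N-acetylgalactosamine, the sugars of chondroitin sulfate, into the endoplasmic reticulum, gave 274 and 123 (-1.15). Its other probe sets gave -0.98 and -0.36, and centering left it at -0.85. SLC35H1 (older symbol SLC35C2), a relative of the Golgi GDP-fucose carrier, gave 461 and 230, 49.9% of control (-1.004), and its other probe set gave -0.48.

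The SLC35 genes were also split, with their values known, into those with a known sugar or sulfate donor (SLC35A1, SLC35A2, SLC35A3, SLC35B3, SLC35B4, SLC35C1, SLC35D1 and SLC35D2) and the rest, and the split is a description. The 8 donor carriers had a median of -0.45 with 7 below the median of all genes, and the other 13 had a median of -0.20 with 5 below it. SLC35B2, also a donor carrier, was left out because its probe set was annotated to MIR4647 as well. That probe set gave 459 and 424 (-0.12), above the median of all genes. SLC35C1, the GDP-fucose carrier, gave 143 and 96.5 (-0.57). SLC35A2, the UDP-galactose carrier, gave 279 and 197 (-0.50) and its other probe set gave 0.17. SLC35B3, a carrier of the sulfate donor PAPS, gave 329 and 250 (-0.40). SLC35A3 (UDP-N-acetylglucosamine) and SLC35A1 (CMP-sialic acid) lay nearer to the median of all genes, at -0.25 and -0.17, and both were above 0 after centering.

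SLC35B4, which carries UDP-xylose, gave 949 and 750 (-0.34), within 0.27 of the median of all genes. The remaining SLC35 genes apart from SLC35H1 were within 2-fold and ran in both directions. SLC35F6 gave 255 and 140 (-0.86), and its 3 probe sets ran from -0.86 to -0.58. SLC35F5 gave 683 and 502 (-0.44), and SLC35A5 gave 615 and 533 (-0.21). Both lay within 0.27 of the median of all genes. SLC35B1, a carrier of ATP into the endoplasmic reticulum, gave 720 and 653 (-0.14). Above 0 lay SLC35E3 (380 and 394, 0.05), SLC35F2 (215 and 227, 0.08), SLC35G2 (557 and 608, 0.12) and SLC35E4 (208 and 249, 0.26).

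SLC26A2 is 1 of the carriers that bring sulfate into the cell, and its loss in people causes skeletal dysplasias with undersulfated cartilage. It gave 494 and 238 (-1.05), and its other 2 probe sets gave -1.07 and -1.03, the closest agreement among the SLC genes past 2-fold with several probe sets. All 3 probe sets of SLC26A2 and both of SLC35D2 at the limit lay past 2-fold, which held for no other SLC gene with several. After centering SLC26A2 was at -0.75. Its family members at the limit, SLC26A11 and SLC26A4, gave -0.06 and 0.10 in the deposited ratios, both above the median of all genes. A probe set left out for matching both SLC26A6 and MIR6824 gave 85.3 and 42.3 (-1.01). The probe set of SLC26A6 alone was below the limit, with 31.6 and 30.6 (-0.05).

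**Figure D3:**
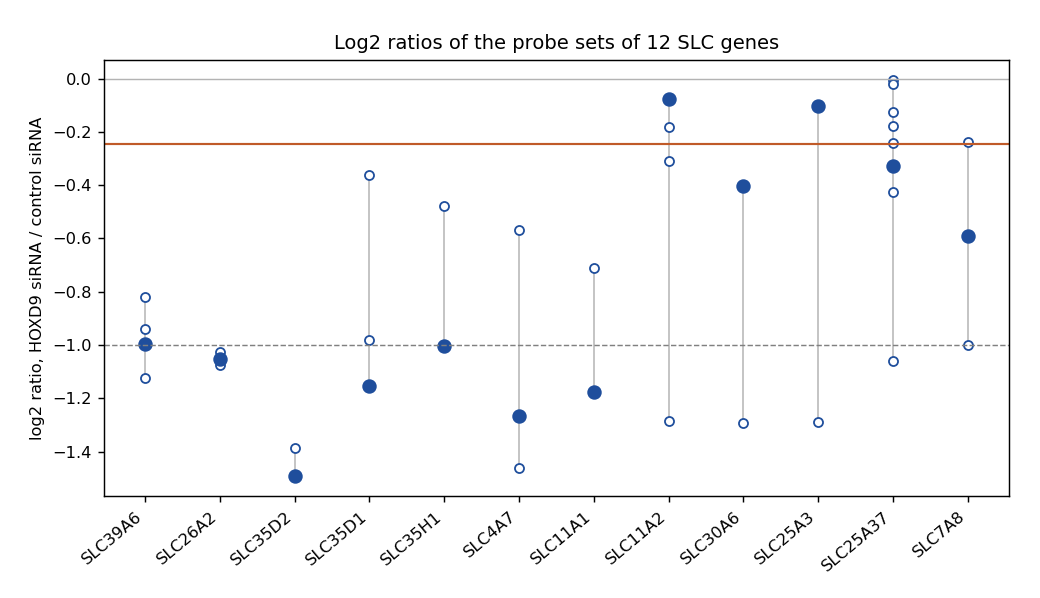
Log2 ratio of HOXD9 siRNA over control siRNA for every probe set at the signal limit of 12 SLC genes, the brightest filled and the others open, with the median of all genes as the orange line and 2-fold as the dashed line. The probe sets of SLC26A2 lay between -1.07 and -1.03, whereas those of SLC11A2 and SLC25A3 ran down to -1.29 from -0.08 and -0.10.

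Of the 16 zinc carriers, 10 lay below the median of all genes, and 1 stood at 2-fold. SLC39A6 (ZIP6), a zinc importer whose expression follows the estrogen receptor in breast cancer, gave 2507 and 1256, 50.1% of control (-0.997), just short of the limit. Its other 3 probe sets gave -1.12, -0.94 and -0.82, and centering left the brightest at -0.70. SLC39A10 (ZIP10), its closest relative, gave 287 and 280 (-0.04). SLC39A14 (ZIP14), which also carries iron, gave 2062 and 1654 (-0.32), and SLC39A8 (ZIP8), which also carries manganese, gave 682 and 519 (-0.39). These 2 lay within 0.27 of the median of all genes, as did SLC39A9 at -0.32 and SLC39A13 at -0.43.

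Of the exporters, 4 of 5 lay below the median of all genes. SLC30A1 (ZnT1), the exporter of the plasma membrane, gave 1311 and 924 (-0.51) and its other probe set gave -0.30. SLC30A7 (ZnT7), a Golgi carrier, gave 831 and 582 (-0.51) and its 3 probe sets ran from -0.67 to -0.51. SLC30A5 (ZnT5) gave -0.37, and SLC30A6 (ZnT6), its Golgi partner, gave 351 and 266 (-0.40) with its brightest probe set but 211 and 86.0 (-1.29) with the other. SLC30A9 gave 700 and 681 (-0.04). The 5 SLC30 genes had a median of -0.40 and the 11 SLC39 genes one of -0.32, and all 16 together had -0.34, or -0.04 after centering. At the upper end were SLC39A7 (110 and 107, -0.04) and SLC39A4 (165 and 175, 0.09).

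Metal-responsive genes carry short elements bound by the factor MTF1, whose core is written TGCACNC or TGCGCNC, with N for any base. The core was searched on both strands in the 250 bases before the start of each gene, in the RefSeq promoters of GRCh38.p14, which held 140 of the 162 SLC genes and 7906 of all genes at the limit. The second form shares letters with the site of the factor NRF1, common in promoters rich in G and C. Either form stood in 34.1% of all promoters, in 38 SLC promoters (27.1%), in 4 of 14 zinc promoters (28.6%, SLC30A1, SLC30A6, SLC39A3 and SLC39A6) and in 9 of 18 SLC35 promoters (50.0%). Of the 11 genes lower by more than 2-fold, 7 had a promoter and only that of SLC35D2 held the core. The promoters of SLC39A6, the zinc gene with the lowest ratio, of SLC30A1, the exporter of the plasma membrane, and of SLC35D2, the lowest of all SLC genes, are shown 5′ to 3′ with the core or its reverse complement in capitals. They lie on the minus strand at chr18:36129341-36129590 (SLC39A6), chr1:211579162-211579411 (SLC30A1) and chr9:96383712-96383961 (SLC35D2), and each ends at the base before the start.
SLC39A6: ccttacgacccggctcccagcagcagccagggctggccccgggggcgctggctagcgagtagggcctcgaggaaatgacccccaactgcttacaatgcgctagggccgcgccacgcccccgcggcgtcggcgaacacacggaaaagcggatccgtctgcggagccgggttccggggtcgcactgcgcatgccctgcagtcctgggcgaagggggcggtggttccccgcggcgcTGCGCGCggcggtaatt
SLC30A1: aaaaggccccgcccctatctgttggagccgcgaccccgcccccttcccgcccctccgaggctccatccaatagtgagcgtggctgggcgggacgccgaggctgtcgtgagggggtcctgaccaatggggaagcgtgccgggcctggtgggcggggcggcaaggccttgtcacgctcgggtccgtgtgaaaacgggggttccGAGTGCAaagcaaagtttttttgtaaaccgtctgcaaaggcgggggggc
SLC35D2: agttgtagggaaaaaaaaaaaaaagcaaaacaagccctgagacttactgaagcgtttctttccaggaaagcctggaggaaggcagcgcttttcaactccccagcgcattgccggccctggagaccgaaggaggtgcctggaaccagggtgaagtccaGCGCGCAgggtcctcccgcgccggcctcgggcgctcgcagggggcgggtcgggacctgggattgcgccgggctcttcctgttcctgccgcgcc
The core began 17 bases before the start in SLC39A6, 49 in SLC30A1 and 93 in SLC35D2. SLC30A1 held the form TGCACNC, on the reverse strand, and the other 2 held the form TGCGCNC. The match describes these letters and not a bound site.

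The mitochondrial carriers had a median slightly above that of all genes, and 3 of them were lower by more than 2-fold (9.4%, against 3.0% of all genes). The median of the 32 genes was -0.15 (0.15 after centering), with 11 below the median of all genes and 21 at or above it. SLC25A25 and SLC25A24, 2 calcium-sensitive carriers that exchange ATP-magnesium for phosphate, gave 87.9 and 34.4 (-1.35), and 482 and 219 (-1.14). SLC25A30, a relative of the uncoupling proteins, gave 267 and 125 (-1.09). Each of these 3 was read by 1 probe set at the limit, a dimmer one of SLC25A30 gave 19.01 and 25.6 (0.43), and only SLC25A25 stayed past 2-fold after centering, at -1.05. SLC25A23, the third ATP-magnesium carrier, was below the signal limit with 41.3 and 6.70, at least 2.25-fold lower when its second signal is set at background, or 1.82-fold after centering.

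SLC25A5 (ANT2), an exchanger of ADP and ATP, gave 5591 and 4758 (-0.23), and SLC25A4 (ANT1) gave 141 and 143 (0.02). SLC25A3, the phosphate carrier, gave 3968 and 3690 (-0.10), although its other probe set gave 142 and 58.1 (-1.29). The aspartate-glutamate carriers SLC25A13 and SLC25A12 gave -0.15 and -0.21, and SLC25A1, the citrate carrier, gave -0.14. SLC25A46, an outer membrane protein, gave 1113 and 1067 (-0.06). These brightest probe sets lay above the median of all genes, whereas SLC25A20, which brings acylcarnitines in for fatty acid oxidation, lay below it with 208 and 134 (-0.63).

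Of the 2 mitoferrins, which bring iron to the matrix, SLC25A28 gave 198 and 120 (-0.71), and SLC25A37 gave 584 and 465 (-0.33). The 8 probe sets of SLC25A37 ran from -1.06 to -0.004, and no other SLC gene had as many at the signal limit. SLC25A40 gave 448 and 331 (-0.44), and its relative SLC25A39, a mitochondrial glutathione carrier, gave 507 and 456 (-0.15). SLC25A32, a carrier of folate and FAD, gave 856 and 663 (-0.37). At the upper end were SLC25A29 (59.6 and 66.2, 0.15), SLC25A36, a pyrimidine nucleotide carrier (753 and 866, 0.20), and SLC25A14 (191 and 220, 0.21). These 3 each had another probe set below 0.

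Among the 64 genes of the further groups, 5 (7.81%, against 3.0% of all genes) were lower by more than 2-fold, SLC26A2 being 1 of them. The median was -0.22 (0.08 after centering). SLC31A2 (CTR2), a copper carrier of endosomes and lysosomes, gave 201 and 74.3 (-1.44), while SLC31A1 (CTR1), the copper importer of the plasma membrane, gave 330 and 324 (-0.03). SLC11A1 (NRAMP1), a metal carrier of phagocyte phagosomes, gave 93.9 and 41.6 (-1.18) and its other probe set gave -0.71. SLC11A2 (DMT1), the common importer of ferrous iron, gave 524 and 496 (-0.08) with its brightest probe set, and its other probe sets ran down to -1.29. The magnesium carriers SLC41A1, SLC41A2 and SLC41A3 gave -0.40, -0.01 and 0.08.

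SLC23A2 (SVCT2), the sodium-coupled importer of vitamin C, gave 86.6 and 31.8 (-1.44) with its 1 probe set at the limit and stayed past 2-fold after centering, at -1.14. Of its dimmer probe sets above background on both arrays, 1 gave 43.0 and 21.2 (-1.02) and the other gave 27.5 and 22.6 (-0.28). The riboflavin carrier SLC52A2 gave 448 and 296 (-0.60) and the thiamine carrier SLC19A2 gave 94.8 and 68.5 (-0.47). SLC19A1, the reduced folate carrier, was the highest of the vitamin carriers, with 115 and 132 (0.19), although dimmer probe sets of it gave 37.1 and 22.8 (-0.70), and 31.9 and 23.9 (-0.41). The 5 vitamin genes had a median of -0.47, below that of all genes.

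Carriers of bicarbonate and sodium differed in direction. SLC4A7 (NBCn1), an electroneutral importer of sodium and bicarbonate, gave 514 and 214 (-1.27, and -0.97 after centering), and its other probe sets gave -1.46 and -0.57. SLC4A4 (NBCe1), its electrogenic relative, gave 55.3 and 87.6 (0.66, and 0.96 after centering). The 2 genes thus lay on either side of the median of all genes, SLC4A4 just over the signal limit. SLC9B2, a sodium-proton exchanger, gave 84.0 and 51.9 (-0.70). SLC12A2 (NKCC1), which brings in sodium, potassium and chloride, gave 275 and 197 (-0.48), whereas SLC12A4 (KCC1) gave 67.7 and 88.4 (0.38) and SLC12A9 gave 50.5 and 69.01 (0.45). SLC9D1 (older symbol TMCO3) gave 1153 and 1051 (-0.13).

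Both phosphate importers were below the median of all genes. SLC20A1 (PiT1) gave 3202 and 2280 (-0.49), and SLC20A2 (PiT2) gave 108 and 69.45 (-0.64). SLC34A3 gave 98.4 and 71.3 (-0.46), so the 3 phosphate genes ran from -0.64 to -0.46. SLC5A3 (SMIT1), the sodium-coupled importer of myo-inositol, gave 1221 and 998 (-0.29). Of the lipid carriers, SLC27A1 (FATP1) was lowest at 86.9 and 52.4 (-0.73), SLC27A4 (FATP4) gave 146 and 139 (-0.07), and SLC44A1 (CTL1), a choline carrier, gave 863 and 782 (-0.14) with 5 probe sets from -0.52 to 0.39.

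The nucleoside carriers ran in both directions. SLC29A3 (ENT3), a lysosomal carrier, gave 53.8 and 87.5 (0.70, and 1.00 after centering), just past 2-fold only once centered. SLC29A1 (ENT1), the carrier of the plasma membrane, gave 188 and 154 (-0.29), and SLC43A3, a purine nucleobase carrier, gave 1066 and 841 (-0.34). Both of the latter lay within 0.27 of the median of all genes. SLC29A4 (PMAT) was below the limit with 5.57 and 42.5, at least 2.31-fold higher against background.

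The remaining named genes were within 2-fold. SLC16A7 (MCT2), a lactate and pyruvate carrier, gave 365 and 363 (-0.01). Carriers of the endoplasmic reticulum ran from SLC37A4, which carries glucose 6-phosphate (66.9 and 50.2, -0.41), through the acetyl-CoA carrier SLC33A1 (336 and 321, -0.07) to SLC37A3 (256 and 322, 0.33). Of the organic ion carriers, SLC22A15 gave -0.46, SLC22A23 -0.21 and SLC22A4 (OCTN1) 0.04. SLC67A1 (older symbol SLC22A18) gave 225 and 152 (-0.57), and SLC60A2 gave 87.2 and 99.02 (0.18). The other probe set of SLC60A2 at the limit gave -0.61, and a dimmer one gave 58.2 and 40.7 (-0.51).

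Posterior HOX proteins prefer a core written TTTATNG, the reverse of which, CNATAAA, overlaps the letters of a TATA box. On either strand it stood in 5.29% of the 7906 promoters and in 7 of the 140 SLC promoters (5.0%). It stood in 0 of the 7 promoters of genes lower by more than 2-fold that were found. The 7 SLC genes were SLC25A28, SLC26A4, SLC29A3, SLC2A1, SLC38A1, SLC4A4 and SLC9B2. The promoters of SLC4A4 and SLC29A3, among the 3 highest SLC ratios, and of SLC9B2, the only SLC promoter with 3 copies, are shown 5′ to 3′ with the core or its reverse complement in capitals. They lie at chr4:71062410-71062659 on the plus strand (SLC4A4), chr10:71319009-71319258 on the plus strand (SLC29A3) and chr4:103077320-103077569 on the minus strand (SLC9B2).
SLC4A4: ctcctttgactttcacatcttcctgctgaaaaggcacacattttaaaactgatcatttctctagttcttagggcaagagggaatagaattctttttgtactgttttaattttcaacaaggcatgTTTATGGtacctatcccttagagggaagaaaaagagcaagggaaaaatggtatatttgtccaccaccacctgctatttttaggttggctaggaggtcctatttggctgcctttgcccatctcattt
SLC29A3: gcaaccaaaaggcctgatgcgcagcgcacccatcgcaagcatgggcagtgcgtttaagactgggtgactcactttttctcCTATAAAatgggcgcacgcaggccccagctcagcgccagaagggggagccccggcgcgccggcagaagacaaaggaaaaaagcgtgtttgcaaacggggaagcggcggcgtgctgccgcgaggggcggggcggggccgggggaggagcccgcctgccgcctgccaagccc
SLC9B2: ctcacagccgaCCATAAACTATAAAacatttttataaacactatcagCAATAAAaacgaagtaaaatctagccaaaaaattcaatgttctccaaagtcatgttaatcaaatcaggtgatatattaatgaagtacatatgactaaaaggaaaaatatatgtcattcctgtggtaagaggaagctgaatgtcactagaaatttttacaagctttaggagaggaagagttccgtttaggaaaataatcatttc
In SLC4A4 the core began 126 bases before the start and in SLC29A3, in the reverse form, 170 bases before it. The 3 copies of SLC9B2 were all in the reverse form. SLC9B2 was at 61.8% of its control signal with HOXD9 siRNA and the other 2 were higher, so the letters went with ratios on both sides of the median of all genes. The amino acid response core TGATGNAA stood in 1.51% of all promoters and in 4 SLC promoters (2.86%), those of SLC11A1, SLC1A3, SLC25A11 and SLC27A5.

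Set side by side, some closely related carriers had much the same ratio and others did not. The 15 pairs compared were chosen after their values were seen, so their differences are a description. From the pooled spread of probe sets alone, a difference between 2 genes has a standard deviation of 0.38. On their brightest probe sets 7 of the 15 pairs differed by more than that, SLC25A37 against SLC25A28 only just (0.386 against 0.383). The share was not computed for pairs of unrelated genes, so the count is not a result particular to these 15 pairs. The widest was SLC4A7 against SLC4A4, 1.93 apart, followed by SLC31A2 against SLC31A1 (1.41), SLC7A11 against SLC7A5 (1.11), SLC11A1 against SLC11A2 (1.10), SLC29A3 against SLC29A1 (0.99) and SLC39A6 against SLC39A10 (0.96). The narrowest were SLC38A2 and SLC38A1, 0.002 apart, and SLC2A1 and SLC2A3, 0.01 apart. With the mean of the probe sets 7 pairs again differed by more than 0.38, SLC35D2 against SLC35D1 (0.61) in place of the mitoferrins (0.37), while SLC11A1 against SLC11A2 narrowed to 0.48 and SLC38A2 against SLC38A1 widened to 0.24. On the brightest probe sets SLC35D2 and SLC35D1 differed by 0.34 and SLC25A25 and SLC25A24 by 0.22, all 4 being past 2-fold. Centering moves both genes of a pair alike and leaves these differences as they are.

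**Figure D4:**
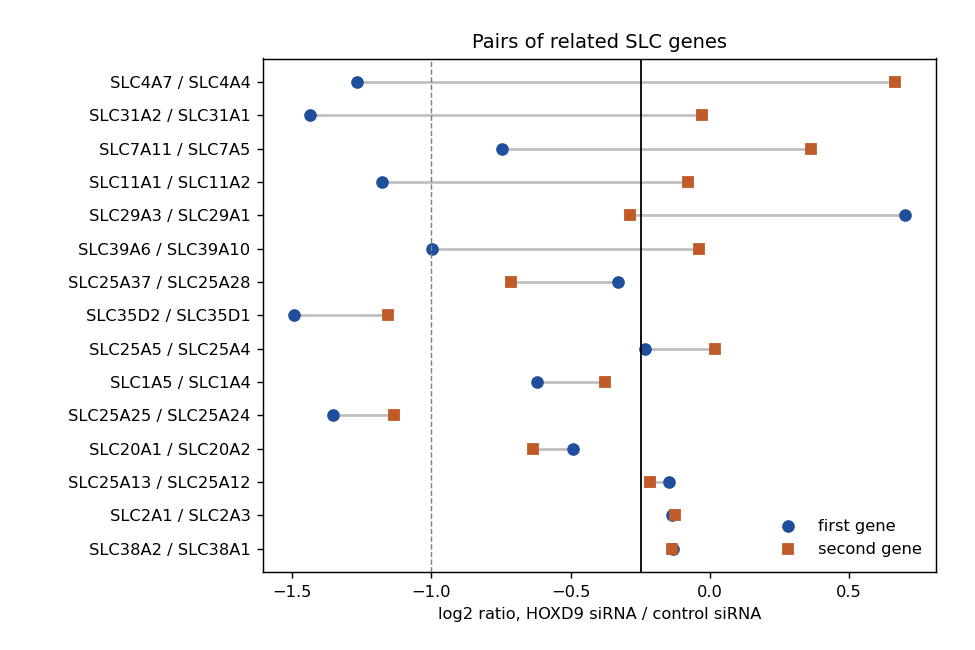
Log2 ratio of HOXD9 siRNA over control siRNA for 15 pairs of related SLC genes, the first gene of each name as a blue circle and the second as an orange square, with the median of all genes as the solid line and 2-fold as the dashed line. SLC4A7 and SLC4A4 lay 1.93 apart, and SLC38A2 and SLC38A1 lay 0.002 apart on their brightest probe sets.

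Carriers outside the SLC symbols gave a comparison from a list of 32 genes, of which 18 met the limit. Their median log2 ratio was -0.26 (0.04 after centering), close to the -0.23 of the SLC genes. All 18 were below 0 in the deposited ratios, as were 86.1% of all genes. After centering 11 of the 18 were above 0, as were 5466 of all 9447 genes. SV2A, a synaptic vesicle protein related to the sugar carriers, gave 202 and 97.1 (-1.06), the 1 gene past 2-fold (5.56%, against 3.0% of all genes). The uncoupling protein UCP2 gave -0.76, the mitochondrial pyruvate carrier subunits MPC1 and MPC2 gave -0.27 and -0.06, and BSG (basigin), the chaperone of lactate carriers, gave 1281 and 1180 (-0.12).

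Of the 180 SLC genes below the limit, 114 were at background on both arrays, 41 on 1 array, and 25 were above it on both. These counts, and those of genes past 2-fold by a bound, were not made for all genes below the limit. Changes of this size are common among dim probe sets. With no signal limit 15.7% of all genes were lower by more than 2-fold and 8.93% were higher. Besides SLC25A23, a lower bound past 2-fold was had for SLC30A4 (ZnT4), a zinc exporter with 66.2 and 14.7, at least 3.60-fold lower, and for SLC9A9 with 51.8 and 14.5, at least 2.82-fold. These bounds were 2.92 and 2.29 after centering. SLC5A2 (SGLT2) gave 39.2 and 1.81, at least 2.13-fold lower, or 1.73-fold after centering. SLC22A25, above background on both arrays, gave 58.6 and 20.5 (-1.52). Just inside the limit were SLC24A1, SLC43A1 and SLC10A7, with mean signals of 51.1, 52.2 and 52.8 and log2 ratios of 0.28, -0.52 and -0.22, and just outside it were SLC24A2, SLC19A3 and SLC67A2, with means of 47.8, 44.5 and 40.9 and ratios of -0.07, -0.26 and -0.53.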

How the data were processed

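Total RNA of U87 cells was labelled and hybridized, per the labels, to 1 array for each siRNA, from cells seeded 48 h before transfection. The paper's siRNA methods give a shorter time between seeding and transfection, and the difference was not resolved here. The authors deposited 1 intensity (signal) on a linear scale for each probe set and array, made with GCOS per the submitters' processing notes. The array scaling used is not given in the sources used here, and detection calls were not used here. Of 54675 probe sets, 62 controls were set aside. Of the other 54613, the platform annotation gave 1 gene for 41091, several for 1801 and none for 11721, and 41037 were matched to RefSeq (GRCh38.p14). Probe sets of several genes were left out.

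A log2 ratio was HOXD9 siRNA over control siRNA, with no pseudocount, and 2-fold was the limit used. The precision is limited by the number of arrays. Named genes were those past 2-fold, deposited or centered; in each of the 5 main groups the 5 brightest, 3 lowest and 3 highest; in each further group the brightest, lowest and highest; genes whose probe sets differed by more than 1; and 3 genes on either side of the signal limit. Further genes were named after their values were seen. The genes, lists and groups were chosen with earlier results of these data known. Alternatives were centering, quantile and loess scaling (fraction 0.3), signal limits of 20, 100 and none, the mean of probe sets, dropping probe sets whose names end in _x_at or _s_at, and raising signals to the background of 27 Bacillus subtilis probe sets. The calculations used python 3.11.15, numpy 2.4.6, pandas 2.3.3, statsmodels 0.14.6 and matplotlib 3.10.9 and were tested on simulated data.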

Additional observations from a re-analysis of the deposited data

How the results depend on the processing

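No paired analysis was possible because each group held 1 array. With centering, quantile and loess scaling, the SLC median was 0.0715, 0.0700 and 0.0544. The genes lower by more than 2-fold were 4, 4 and 4 and those higher were 2, 3 and 3. The lower share was 2.47% each time, against 1.15%, 1.12% and 1.14% of all genes. The higher share was 1.23%, 1.85% and 1.85%, against 0.169%, 0.233% and 0.212%. The 4 lower genes (SLC35D2, SLC23A2, SLC31A2 and SLC25A25) were among the 11 under all 3 scalings, and the gene added to the higher ones by quantile and loess was SLC4A4 (1.01 and 1.00). In the same order the glucose median was 0.33, 0.37 and 0.35, the amino acid median -0.0396, -0.0181 and -0.0237, the SLC25 median 0.15, 0.12 and 0.11, and that of the other carriers 0.0359, 0.0392 and 0.0304. The nucleotide sugar median was -0.0392, -0.0851 and -0.102, and the zinc median -0.0448, -0.101 and -0.110. Centering moved every gene alike, whereas quantile and loess moved some bright genes less. In the same order SLC39A6 was at -0.70, -0.79 and -0.80 and SLC25A5 at 0.0674, -0.101 and -0.0958. The dim SLC36A1 moved slightly more, to 1.03, 1.07 and 1.06. Which scaling fits these RNA samples was not tested.

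With no signal limit 59 of 342 SLC genes were lower (17.3%, against 15.7% of all genes) and 25 higher (7.31%, against 8.93%). With a limit of 20, 17 were lower (8.54%, against 4.92%) and 1 was higher (0.50%, against 0.49%). The glucose median was -0.0470 with no limit, -0.13 with a limit of 20 and -0.12 with one of 100. With a limit of 100, 8 of 128 genes were lower (6.25%, against 2.30%), and with the mean of probe sets 8 were (4.94%, against 2.66%), SLC11A1, SLC35D1 and SLC35H1 no longer passing. Without probe sets ending in _x_at or _s_at, 11 of 125 genes were lower (8.8%, against 3.53% of all genes), 9 of them shared. SLC11A2 and SLC25A3 entered, both at -1.29. SLC11A1 and SLC4A7 dropped out, as every probe set of theirs at the limit had such a name. Raising signals to background left the 11 genes as they were. With 1 array for each condition none of these settings measures the spread between cultures, and genes near the signal limit lie closest to the background of 18.4.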
